A study of Rattus norvegicus with 6 samples.

Results

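The genes described here are the vascular endothelial growth factor (VEGF) ligands Vegfa, Vegfb, Vegfc, Vegfd and Pgf, the receptor tyrosine kinases Flt1, Kdr and Flt4, and the co-receptors Nrp1 and Nrp2. They were taken from the deposited gene table by their symbols. All 10 were found, each on 1 row, of 32623 rows in the table. All 10 also passed the filter on low counts that left 14298 genes for testing. The samples are 6 rat liver libraries (Rattus norvegicus, bulk RNA sequencing of polyadenylated RNA), 3 from the control group embolized with blank microspheres (GM) and 3 from the group embolized with zinc sulfide (ZnS) microspheres (GZM). Embolization, which both groups received, plugs the vessels that feed a tissue. The labels give no strain, age, dose or time after embolization, do not mention whether tumour was present, and call the replicates biosamples without tying them to separate animals. The p-values below therefore speak of the spread among these libraries, which could be technical. Total counts were between 13443115 and 16604067 per library.

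VEGF ligands are secreted growth factors that act on endothelial cells, the lining of vessels. VEGF-A, made from Vegfa, is the main inducer of vessel growth and leakiness and is one of the classical genes induced by low oxygen. It signals through VEGFR2, the product of Kdr. VEGFR1, the product of Flt1, binds VEGF-A, VEGF-B and placental growth factor tightly but signals weakly and is widely regarded as a trap for VEGF-A. VEGFR3, the product of Flt4, is the receptor of VEGF-C and VEGF-D on lymphatic vessels and on some fenestrated endothelium, including that of liver sinusoids. Neuropilins bind both VEGFs and class 3 semaphorins and hand VEGFs to the kinases. In liver, hepatocytes make much of the VEGF-A, and sinusoidal endothelial cells carry its receptors.

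The members did not move together between the groups. Relative to other genes, Vegfa, Kdr and Flt4 were higher in GZM, and Flt1, Nrp1 and Nrp2 were lower. Of the 10 genes, 3 were higher and 3 lower in the quasi-likelihood test of edgeR on TMM-scaled counts (threshold, an adjusted p of 0.05), and 4 did not pass. Over all tested genes 44% passed, 22.2% higher and 21.7% lower, so 6 of 10 is not far from the background of this comparison. Libraries of the groups did not overlap for 6 of the 10 genes (Vegfa, Pgf, Flt1, Kdr, Flt4 and Nrp2), against 58.1% of all tested genes. The median log2 fold change of the 10 genes was -0.20, and that of all tested genes was -0.09.

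The sequences upstream of Vegfa, Flt1 and Kdr are shown because these are the ligand and the receptor pair whose ratio is described below. Each is the 250 bases before the gene's RefSeq start (build GRCr8, 5′ to 3′ on the gene's strand, which is the plus strand for all of them). Capitals mark the core letters of the hypoxia response element, ACGTG or GCGTG, and the Sp1 box GGGCGG, each searched on both strands. The windows are chr9:22452604-22452853 for Vegfa (the upstream one of 2 listed starts), chr12:12333180-12333429 for Flt1 and chr14:32571813-32572062 for Kdr.
Vegfa: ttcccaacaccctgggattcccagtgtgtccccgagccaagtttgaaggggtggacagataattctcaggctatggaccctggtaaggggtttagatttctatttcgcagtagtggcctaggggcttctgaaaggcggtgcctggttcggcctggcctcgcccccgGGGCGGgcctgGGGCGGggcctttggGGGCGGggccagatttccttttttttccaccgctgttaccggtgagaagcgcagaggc
Flt1: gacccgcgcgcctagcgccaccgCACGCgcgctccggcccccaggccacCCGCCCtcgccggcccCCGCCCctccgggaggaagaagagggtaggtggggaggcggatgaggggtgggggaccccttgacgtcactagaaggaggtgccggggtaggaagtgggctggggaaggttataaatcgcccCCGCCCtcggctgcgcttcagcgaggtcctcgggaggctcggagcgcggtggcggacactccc
Kdr: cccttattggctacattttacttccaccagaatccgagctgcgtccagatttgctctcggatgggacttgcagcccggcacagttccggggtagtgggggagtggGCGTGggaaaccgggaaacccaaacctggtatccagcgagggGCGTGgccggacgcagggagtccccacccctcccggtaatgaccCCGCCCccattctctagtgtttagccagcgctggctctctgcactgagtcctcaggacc
In the Vegfa window the capitals are 3 Sp1 boxes on the plus strand, beginning 84, 73 and 58 bases before the start, and no hypoxia core occurs in these letters. The Flt1 window holds 1 hypoxia core, beginning 227 bases before the start, and Sp1 boxes at 201, 185 and 63, all on the minus strand. In the Kdr window there are 2 hypoxia cores, at 145 and 103, on the plus strand and 1 Sp1 box, at 59, on the minus strand. No hypoxia core overlapped an Sp1 box in these windows. All 10 genes had a window in the RefSeq table. Among them 6 held a hypoxia core, which 36.7% of 33469 windows of the same length hold, and 7 held an Sp1 box, which 30.5% hold. Their GC content ran from 40.8% (Vegfd) to 76.0% (Flt4), with a median of 51.2% over all windows. Only Vegfd lay below that median. The letters searched for are mostly G and C, and the windows were not matched for GC content. These shares therefore do not measure enrichment. A match in these letters is a description and not a binding site. Sequence outside the windows was not searched, so a window without a core does not show that the gene lacks one.

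Vegfa was by far the most abundant member in every library. Its deposited FPKM values, which are scaled by exon length and by the library's own total, were 73.1, 73.1 and 81.2 across the GM libraries and 85.3, 102.1 and 89.5 across the GZM libraries, in replicate order. On this scale the groups did not overlap, and their means stood close together (75.8 ± 4.66 against 92.3 ± 8.77, SD, n = 3 each). In CPM (counts brought to a common library size, here with TMM factors, which correct for a few very abundant genes taking up a library), Vegfa stood at 181.8, 182.8 and 245.5 in GM and at 407.3, 506.3 and 399.9 in GZM. All GZM libraries were above all GM libraries, with GM 3 the nearest. The difference was 1.11 ± 0.21 on the log2 scale (SE, edgeR adjusted p = 0.00587), and the call was kept without any 1 library (0.000965 to 0.0326).

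The size of that difference depends on the scaling and its place among other genes does not. Scaled by library totals alone, the median log2 fold change of all tested genes was -0.92 instead of -0.09, the split of calls turned from 3181 higher and 3104 lower to 1318 higher and 8500 lower, and Vegfa stood at 0.28 ± 0.19 (adjusted p = 0.199). Measured from the median gene, Vegfa was at 1.20 with TMM factors and at 1.21 with library totals. The same holds for the other members, whose distances from the median gene barely differed between the scalings: 1.40 and 1.43 for Flt4, 0.87 and 0.90 for Kdr, -0.75 and -0.77 for Flt1, -0.87 under both for Nrp1, and -1.15 under both for Nrp2. A change of scaling shifts the log2 fold changes of all genes by nearly the same amount. Such distances therefore agree by arithmetic for any gene, and their agreement is no separate support for a member's difference. With library totals 6 members passed as lower (Vegfb, Vegfc, Pgf, Flt1, Nrp1 and Nrp2) and 0 as higher, and limma on log2(FPKM + 0.1) gave the same numbers.

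**Figure D1:**
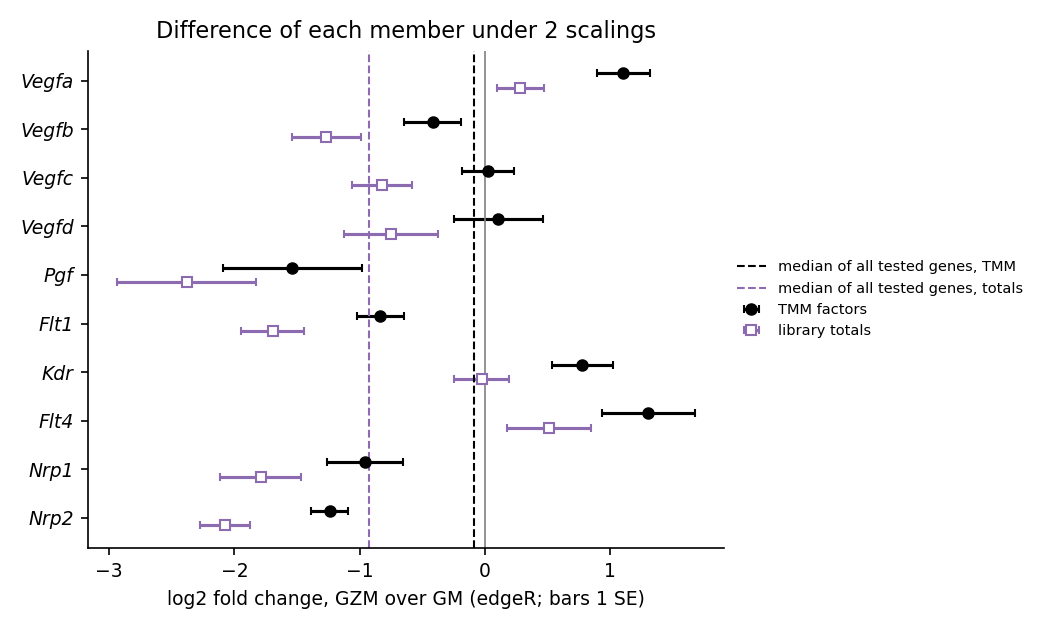
Log2 fold change of each member, GZM over GM, from edgeR with TMM factors (filled circles) and with library totals (open squares), with bars of 1 SE and dashed lines at the median of all tested genes under each scaling. The whole set shifts with the scaling, while Vegfa, Kdr and Flt4 lie right of the median gene and Flt1, Nrp1, Nrp2 and Pgf left of it under both.

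The other ligands did not follow Vegfa. Vegfb, whose product binds VEGFR1 and is known for its part in fat handling, was at 20.1, 29.1 and 18.2 CPM in GM and at 14.1, 17.9 and 18.5 in GZM. The groups overlapped, and the difference did not pass (-0.42 ± 0.23 SE, edgeR adjusted p = 0.174). Pgf, placental growth factor, which binds VEGFR1 alone among the kinases, was rare, with 36, 73 and 44 counts in GM and 3, 16 and 8 in GZM. Every GZM library was below every GM library for Pgf, at 0.812 ± 0.624 CPM against 2.37 ± 0.691. The test missed the threshold (-1.54 ± 0.55, adjusted p = 0.0538). It was passed without GZM 2 (-2.29, adjusted p = 0.0311), with the replicate number as a block (-1.68, 0.0336), in DESeq2 (-1.52, 0.0359) and with library totals (-2.38, 0.0058).

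Vegfc and Vegfd, the ligands of VEGFR3, overlapped between the groups and did not pass. Vegfc was at 18.2, 13.2 and 14.1 CPM in GM and at 17.3, 15.5 and 13.5 in GZM (0.02 ± 0.21 SE, edgeR adjusted p = 0.932). On library totals it was lower (-0.82 ± 0.24, adjusted p = 0.0152), which is 0.10 above the median gene on that scale. Vegfd was the most uneven member in GM, at 68.8, 23.6 and 33.8 CPM, and even in GZM, at 46.2, 48.0 and 41.9. The GZM values lay within the GM range, and the estimate of 0.11 ± 0.35 (adjusted p = 0.819) became -0.17 without GM 2 and 0.66 without GM 1. With library totals the sign of Vegfd turned, to -0.75, without passing (adjusted p = 0.106).

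**Figure D2:**
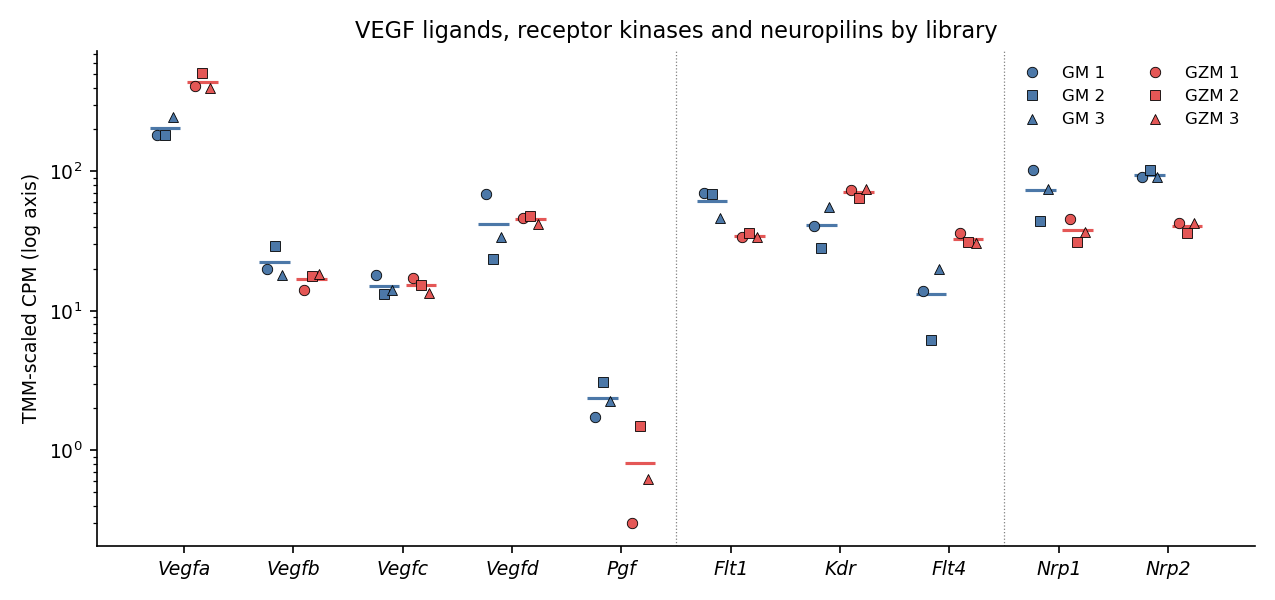
TMM-scaled CPM of each member in each library, on a log axis, with GM in blue, GZM in red, 1 marker shape per replicate number and a line at the group mean. Vegfa, Kdr and Flt4 have all GZM points above all GM points, Flt1, Nrp2 and Pgf have them below, and Nrp1 overlaps through GM 2.

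The receptor kinases moved apart. Flt1 was at 69.8, 69.4 and 46.2 CPM in GM and at 33.8, 36.2 and 34.0 in GZM. Its GZM values were tightly grouped and below every GM library (-0.83 ± 0.19 SE, or 1.78-fold lower, edgeR adjusted p = 0.0101), and the call was kept without any 1 library. Kdr was at 40.5, 28.1 and 55.7 CPM in GM and at 73.3, 64.2 and 75.3 in GZM. Every GZM library was above every GM library for Kdr, but the call (0.78 ± 0.24, 1.71-fold higher, adjusted p = 0.034) was kept without GM 3 (1.09, adjusted p = 0.00323). It was lost without GM 1 (0.0974), GM 2 (0.0588), GZM 1 (0.0762), GZM 2 (0.0692) or GZM 3 (0.094), and with library totals Kdr stood at -0.03 (adjusted p = 0.922).

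Flt4 was the member with the largest positive estimate. It was at 13.8, 6.21 and 19.9 CPM in GM and at 36.3, 31.5 and 30.8 in GZM, with GM 2 the lowest and no overlap. The difference of 1.31 ± 0.37 (SE, 2.47-fold higher, edgeR adjusted p = 0.0241) kept its call without GM 2 (0.96, adjusted p = 0.0154) or GM 3 (1.75, 0.00344) and lost it without GM 1 (0.068), GZM 1 (0.0612), GZM 2 (0.0619) or GZM 3 (0.0537). With library totals it was 0.51 (adjusted p = 0.197).

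Ratios inside a library do not depend on how libraries are scaled, and they give the parting of the receptors more directly. The FPKM of Flt1 was 1.57, 2.25 and 0.753 times that of Kdr in GM 1, 2 and 3, and 0.419, 0.512 and 0.410 times that of Kdr in GZM 1, 2 and 3. Flt1 thus exceeded Kdr in GM 1 and GM 2 and lay below it in the other 4 libraries. The log2 ratio of their counts was 0.61 ± 0.80 in GM and -1.03 ± 0.18 in GZM, a difference of -1.64. The groups did not overlap, which in an exact two-sided permutation test of 3 against 3 gives p = 0.1, the smallest value the design allows (0.125 adjusted over 5 ratios).

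As shares of the summed FPKM of the receptor kinases, Flt1 made up 53.2%, 64.4% and 35.1% in GM and 21.3%, 24.9% and 22.0% in GZM. Kdr made up 34.0%, 28.6% and 46.5% in GM and 50.9%, 48.7% and 53.6% in GZM. The share of Flt4 was 12.8%, 7.01% and 18.4% in GM and 27.9%, 26.4% and 24.4% in GZM. For each of these receptors the groups did not overlap (exact permutation p = 0.1 each, 0.129 adjusted over 9 shares of ligands and receptors). The shares of a library add up to the whole, so these are not separate results. Among the GM libraries, GM 3 came closest to the GZM values for each receptor. The SD of the Flt1 share was 14.8 percentage points in GM and 1.91 in GZM, so the GM libraries varied more among themselves.

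**Figure D3:**
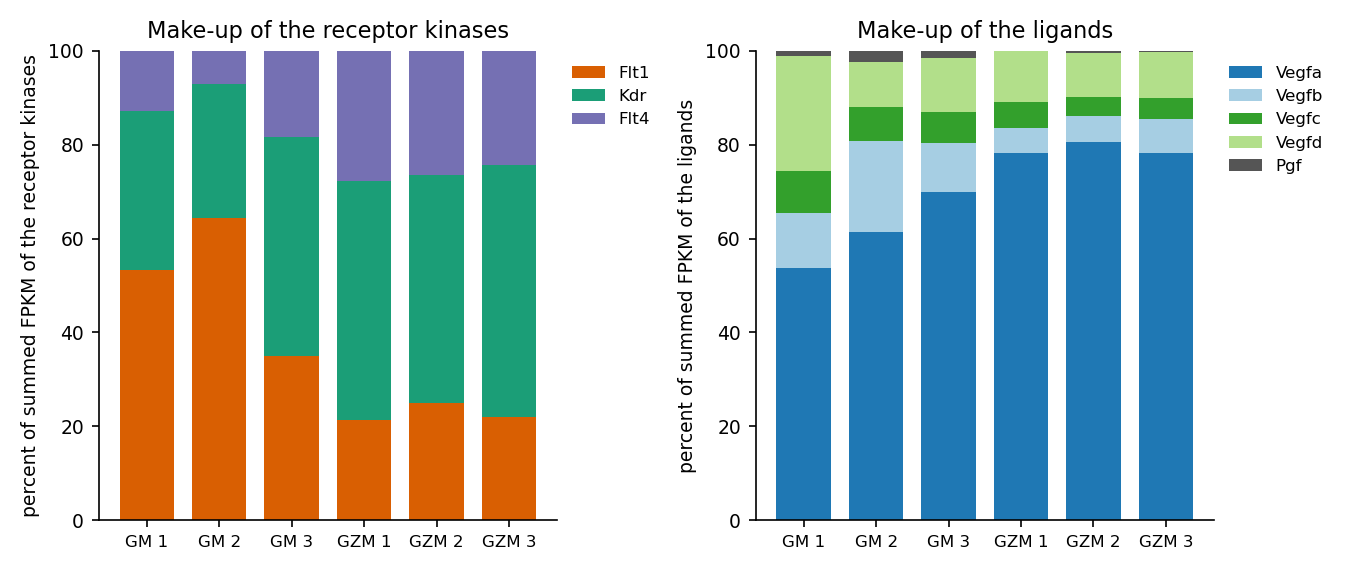
Share of each receptor kinase (left) and each ligand (right) in the summed FPKM of its class, as stacked bars per library. Flt1 takes 21.3% to 24.9% of the receptor kinases in GZM and 35.1% to 64.4% in GM, and Vegfa takes 78.2% to 80.5% of the ligands in GZM and 53.6% to 70.0% in GM.

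Ligand shares also varied less in GZM. Vegfa took 53.6%, 61.3% and 70.0% of the summed ligand FPKM in GM and 78.2%, 80.5% and 78.2% in GZM, without overlap. Vegfb took 13.8% ± 4.88 in GM and 6.08% ± 0.975 in GZM, Vegfc 7.66% ± 1.15 and 4.67% ± 0.765, and Pgf 1.66% ± 0.627 and 0.317% ± 0.210 (SD, n = 3 each), again without overlap (exact permutation p = 0.1 each). The shares of a library add up to the whole, so a larger Vegfa share by itself makes the others smaller. These differences are therefore not separate results, and in CPM Vegfb and Vegfc overlapped between the groups. Without GM 2 the Vegfb difference of -7.75 percentage points became -4.97. The share of Vegfd overlapped (15.2% ± 8.10 and 9.93% ± 0.743, exact permutation p = 0.3), and its difference of -5.29 became -0.65 without GM 1.

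Set against the kinases, Vegfa stood out from Flt1 but not from Kdr. The FPKM of Vegfa was 5.12, 5.17 and 10.5 times that of Flt1 in GM and 23.7, 27.5 and 23.1 times in GZM. Against Kdr it was 8.02, 11.6 and 7.87 times in GM and 9.92, 14.1 and 9.49 times in GZM. The first ratio did not overlap between the groups and the second did, with log2 differences of 1.92 and 0.28 (exact permutation p = 0.1 and p = 0.3). A p of 0.3 from 3 libraries against 3 does not show that Vegfa and Kdr changed alike, and the difference ran from 0.11 without GZM 2 to 0.47 without GM 2. For the lymphatic pair, the FPKM of Vegfc was 3.53, 5.72 and 1.90 times that of Flt4 in GM and 1.28, 1.32 and 1.17 times in GZM (log2 difference -1.42, exact permutation p = 0.1).

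Both neuropilins were lower in GZM. Nrp2, which serves VEGF-C and lymphatic growth as well as semaphorins, was at 91.2, 103.3 and 90.7 CPM in GM and at 42.4, 36.2 and 42.5 in GZM. Its groups stood far apart relative to their spread, and it had the smallest p of the 10 genes (-1.24 ± 0.15 SE, 2.36-fold lower, edgeR adjusted p = 0.00218), with the call kept without any 1 library. Nrp1, the partner of VEGFR2, was at 103.0, 43.8 and 74.6 CPM in GM and at 46.0, 31.5 and 36.8 in GZM. GM 2 lay below GZM 1, so the groups overlapped. Its difference passed (-0.95 ± 0.31, 1.94-fold lower, adjusted p = 0.0365) but lost its call without GM 1 (0.119), GM 3 (0.055), GZM 2 (0.13) or GZM 3 (0.103).

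Relative to Kdr in the same library, Nrp1 had a log2 count ratio of 1.35, 0.64 and 0.42 in GM and -0.67, -1.03 and -1.03 in GZM, without overlap (difference -1.71, exact permutation p = 0.1). Within the pair, Nrp1 made up 45.7% ± 12.1 of the summed neuropilin FPKM in GM and 51.6% ± 3.21 in GZM, and these shares overlapped (exact permutation p = 0.5). Their difference of 5.85 percentage points turned to -0.73 without GM 2. The summed TMM-scaled CPM of the neuropilins was 147.1 to 194.3 in GM and 67.6 to 88.4 in GZM. That of the receptor kinases was 103.7 to 124.1 in GM and 131.8 to 143.4 in GZM.

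The order of levels per length changed between the groups below Vegfa. In GM, by mean FPKM, Vegfa (75.8) was followed by Nrp2 (20.0), Vegfd (19.4), Nrp1 (17.7), Vegfb (17.1), Flt1 (12.1), Vegfc (9.57), Kdr (8.58), Flt4 (3.02) and Pgf (2.03). From Nrp2 down to Kdr each neighbour overlapped the next, so that order is not resolved beyond the spread, and Flt4 overlapped Pgf. In GZM the order was Vegfa (92.3), Vegfd (11.6), Kdr (8.43), Vegfb (7.09), Vegfc (5.42), Nrp1 (5.12), Nrp2 (4.76), Flt4 (4.31), Flt1 (3.73) and Pgf (0.383). Here Vegfa, Vegfd, Flt1 and Pgf stood clear of their neighbours, and from Kdr to Flt4 each overlapped the next. Flt1 thus had the highest mean of the receptor kinases in GM and the lowest in GZM, where its libraries (3.60 to 3.87) lay below those of Flt4 (3.94 to 4.71).

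Endothelial cells carry VEGF receptors, so the levels of the members were also set against endothelial genes of the same library. Which cells the transcripts of each member came from was not tested. A difference from the endothelial level therefore need not lie in endothelial cells, for the neuropilins as for the kinases. In a bulk sample fewer cells of a type and less RNA per cell cannot be told apart. Of 18 listed pan-endothelial genes 15 were tested, of which 3 were higher, 2 lower and 10 did not pass, with a median of 0.27 (with library totals 0 higher, 5 lower and -0.57). Their mean log2 CPM was 4.56, 3.89 and 4.44 in GM and 4.67, 4.33 and 4.47 in GZM, overlapping between the groups. Their summed CPM was 370.1 to 498.7 in GM and 429.3 to 548.4 in GZM, Cldn5 had 0 counts in all libraries, and Pecam1 had no row of that symbol. Beside these counts, 22.2% of all tested genes were higher and 21.7% lower, and with library totals 1318 of 14298 were higher and 8500 lower.

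Against this endothelial level the receptors also differed between the groups. Flt4 was at -0.72, -1.14 and -0.10 log2 units from it in GM and at 0.53, 0.67 and 0.50 in GZM. Kdr was at 0.80, 0.94 and 1.37 in GM and at 1.54, 1.68 and 1.77 in GZM. Flt1 went the other way, from 1.58, 2.24 and 1.10 in GM to 0.43, 0.86 and 0.64 in GZM. Nrp1 (1.83 ± 0.28 and 0.76 ± 0.10) and Nrp2 (2.28 ± 0.46 and 0.86 ± 0.10) were closer to the endothelial level in GZM, as means and SD over 3 libraries each. All 5 of these genes and Vegfa had groups that did not overlap on this measure (exact permutation p = 0.1 each, 0.167 adjusted over the 10 members).

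**Figure D4:**
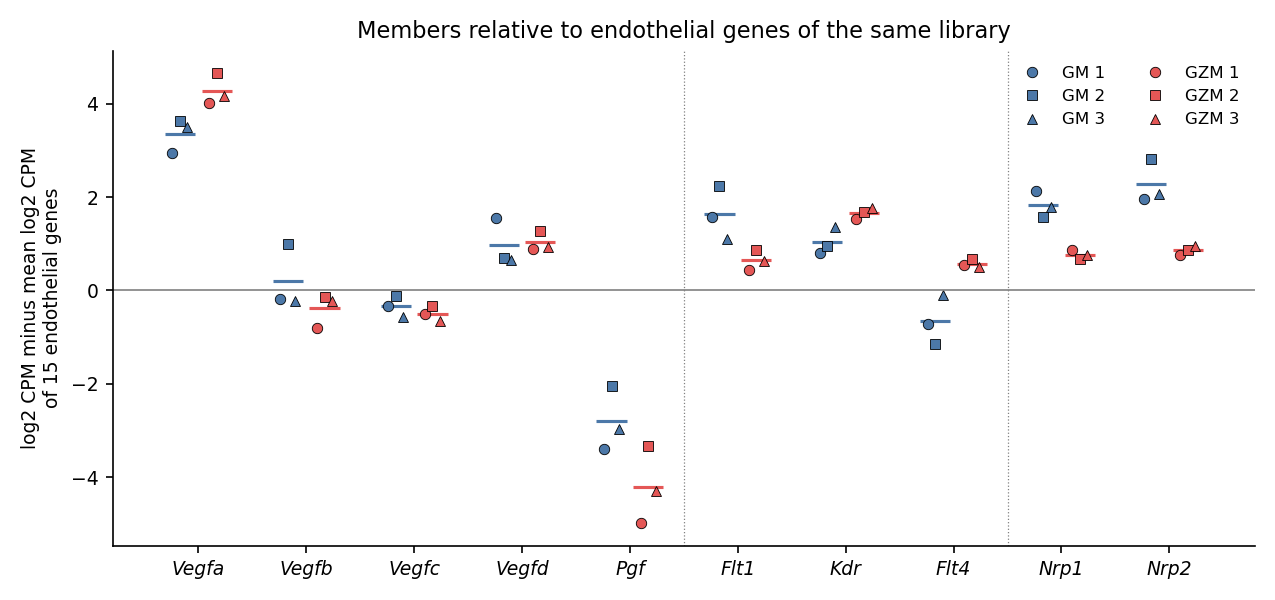
Log2 CPM of each member minus the mean log2 CPM of the 15 tested pan-endothelial genes in the same library, with GM in blue, GZM in red and lines at group means. Flt4 lies below the endothelial level in the 3 GM libraries and above it in the 3 GZM libraries, and Flt1, Nrp1 and Nrp2 come down towards it in GZM.

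The sizes of these differences, and the sign for Kdr, depended on which endothelial genes were used. Of 15 tested sinusoidal endothelial genes 6 were higher, 1 was lower and 8 did not pass, with a median of 1.16. With library totals 1 was higher and 5 were lower, with a median of 0.33. The list summed to 808.5 to 1788 CPM in GM and 1797 to 2529 in GZM, mainly through Ctsl (mean 634.7 and 1534 CPM). Its mean log2 CPM was 3.841 to 5.078 in GM and 5.172 to 5.375 in GZM. Among the 6 higher genes, the hyaluronan receptor gene Lyve1 was higher by 1.58 ± 0.35 (SE, edgeR adjusted p = 0.00938, and 0.0515 with library totals) and the receptor gene Gpr182 by 1.67 ± 0.31 (0.00532). The 1 lower gene was F8 (-0.68 ± 0.20, adjusted p = 0.0292). Against the mean of that list, Kdr differed between the groups by -0.054 in place of 0.63, Vegfa by 0.24 in place of 0.92, Flt4 by 0.54 in place of 1.22, Flt1 by -1.68 in place of -0.99 and Nrp1 by -1.75 in place of -1.07. Of 8 genes listed for lymphatic endothelium, some of which other liver cells also express, 3 were higher and 2 lower (median -0.36), and with library totals 1 was higher and 4 were lower (median -1.19). Prox1, a lymphatic regulator that hepatocytes express as well, was higher by 2.26 ± 0.32 (adjusted p = 0.00257), and the podoplanin gene Pdpn fell by 1.71 on the log2 scale (SE 0.44, 0.0164, and 0.0639 without GZM 2).

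Summed levels of other cell types' markers differed between the groups for some types. The 16 matched hepatocyte genes, of which none was at 0, summed to 25670, 18680 and 70030 CPM in GM 1, 2 and 3 and to 171700 to 205400 in GZM. Library by library in GM, the Flt1 share of the receptor kinases was lowest, and the Vegfa level highest, in GM 3. That library had the largest GM sums not only of hepatocyte genes. It also led for macrophage (7082 CPM), lymphocyte (824.1), neutrophil (572.2) and platelet and red cell genes (332.1). Its sum of cell division genes (590.9) was the smallest in GM. GM 1 and GM 2 had nearly equal Vegfa levels (181.8 and 182.8 CPM) and Flt1 shares of 53.2% and 64.4%. Cell division genes summed to 590.9 to 1553 CPM in GM and 236.7 to 259.3 in GZM, lymphocyte genes to 471.7 to 824.1 and 171.4 to 357.1, and platelet and red cell genes, with Gp1bb at 0, to 76.7 to 332.1 and 453.2 to 808.1. The last sum came mainly from the haemoglobin genes Hbb (mean 95.15 and 348.9 CPM) and Hba-a2 (55.35 and 195.6 CPM). The platelet gene Pf4 was at 11.38 and 11.17 CPM. Of 5 tested genes of that list 2 were higher and 3 did not pass, and with library totals 0 were higher and 1 was lower. Pericyte and stellate cell genes (3593 to 9746 and 1882 to 4146) and cholangiocyte genes (190 to 368.3 and 220.7 to 290.9) overlapped. Macrophage genes summed to 3853 to 7082 CPM in GM and 2191 to 3136 in GZM, largely through Lyz2 (mean 2897 and 761.6 CPM). Of 12 tested macrophage genes 6 were lower, 2 were higher, among them Clec4f (84.5 and 409.2 CPM), and 4 did not pass. Neutrophil genes summed to 162.8 to 572.2 CPM in GM and 1553 to 2863 in GZM through Lcn2 (270.6 and 2212 CPM), which other cells also make. Of 7 tested neutrophil genes 1 was higher, 1, Csf3r, was lower and 5 did not pass. Lymphatic endothelial genes summed to 129.4 to 220.6 and 335.7 to 344.1 CPM, mainly through Prox1 (26.6 and 127.6 CPM) and Lyve1 (29.0 and 86.2 CPM). The mean log2 CPM of the macrophage, neutrophil, lymphocyte and lymphatic lists overlapped between the groups. The part of these differences in the levels of the VEGF genes was not tested.

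Genes that act on or with the family were read from lists. The background for the list counts here and below is that 22.2% of all tested genes were higher and 21.7% lower. With library totals 1318 of 14298 genes were higher and 8500 lower. Of 16 tested regulators of Vegfa 2 were higher, 4 were lower and 10 did not pass (median -0.18). With library totals 1 was higher and 12 were lower (median -1.02). Hif1a, the oxygen-regulated subunit that activates Vegfa, fell by 1.48 on the log2 scale (SE 0.17, edgeR adjusted p = 0.00215). Egln3, a prolyl hydroxylase and itself a target of that factor, fell by 1.45 (SE 0.30, 0.00716). Epas1, which encodes the related subunit HIF-2α and is strong in endothelium, was at 113.2 CPM in GM and 195.5 in GZM (0.79 ± 0.30, adjusted p = 0.0649, and -0.01 with library totals). Hnf4a, a master regulator of hepatocytes, was higher by 2.57 ± 0.43 (0.00391), and Sp1 fell by 0.56 (SE 0.17, 0.0321), a call lost without any 1 library other than GM 3. Of 20 other hypoxia-inducible genes 10 were lower, 1 was higher and 9 did not pass, with a median of -0.70, and with library totals 0 were higher and 16 lower, with a median of -1.56. Among them the glucose transporter gene Slc2a1 fell by 1.72 (SE 0.20, 0.00215).

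VEGF-C and VEGF-D are made as precursors that proteases trim. Of 7 tested genes of that kind, 2 were higher, 2 lower and 3 did not pass (median -0.22). With library totals 1 was higher and 5 were lower (median -1.02). Furin, a proprotein convertase, was higher by 1.27 ± 0.19 (SE, edgeR adjusted p = 0.0028, and 0.0527 with library totals), and Plg, the liver-made plasminogen, by 2.19 ± 0.51 (0.0115, and 0.0529 without GM 1). The gene of the main VEGF-C protease, Adamts3, was rare and lower in GZM, at 2.87 CPM in GM and 0.611 in GZM (-2.23 ± 0.49, 0.00904). Adamts14, a relative, fell by 1.17 (SE 0.37, 0.0348), a call lost without GM 1 (0.126), GZM 2 (0.118) or GZM 3 (0.116).

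Semaphorins and plexins share the neuropilins with VEGF. Of 11 tested, 5 were lower, 1 was higher and 5 did not pass, with a median of -1.38 (with library totals 1 higher, 10 lower and -2.25) beside -0.09 for all tested genes. The plexin co-receptors Plxna1 and Plxna3 had log2 fold changes of -1.84 ± 0.26 and -2.06 ± 0.31 (SE, edgeR adjusted p = 0.00261 and 0.00289). Sema3b, a secreted semaphorin, fell by 3.03 (SE 0.49, 0.00358). Plxna2 was the exception, at 34.0 CPM in GM and 111.0 in GZM (1.71 ± 0.21, 0.00227), and it passed as higher also with library totals (0.89, 0.00404).

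Counts for the signal relay genes downstream of VEGFR2 depended on the scaling, as did those of all tested genes. Of 30 tested, 4 were higher, 5 were lower and 21 did not pass, with a median of -0.20, whereas with library totals 0 were higher and 24 lower, with a median of -1.04. Prkcb, a protein kinase C gene, fell by 1.56 (SE 0.30, edgeR adjusted p = 0.00598). The adaptor gene Shb was higher by 1.19 ± 0.20 (0.00384) and the kinase gene Map2k2 by 1.15 ± 0.18 (0.00316), and neither passed with library totals (0.153 and 0.109). Of 18 tested genes for proteins that traffic, steady or switch off the receptors, 7 were lower, 1 was higher and 10 did not pass (median -0.28). With library totals 14 of them were lower and 0 higher (median -1.11). The endocytic adaptor gene Dab2 fell by 1.63 (SE 0.26, 0.00342), and Efnb2, the ephrin needed for receptor uptake, fell by 1.18 (SE 0.21, 0.00424). Synj2bp was the one higher gene (0.98 ± 0.14, 0.00251, and 0.442 with library totals).

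Among extracellular proteins that bind or oppose VEGF, 14 genes were tested, of which 2 were higher, 5 lower and 7 did not pass (median -0.72). With library totals 2 were higher and 9 lower (median -1.57). Higher were Col18a1, the source of endostatin, by 1.83 ± 0.29 (SE, edgeR adjusted p = 0.00348), and Serpinf1, which encodes the inhibitor PEDF, by 2.07 ± 0.30 (0.00269). Both passed as higher with library totals too (1.03 and 1.27). The thrombospondin gene Thbs1, another inhibitor, fell by 1.54 (SE 0.27, 0.00426). Of 13 genes of sprouting endothelium 1 was higher, 2 were lower and 10 did not pass, with a median of -0.43, and with library totals 0 were higher and 7 lower, with a median of -1.21. Angpt2, which loosens vessel walls, fell by 1.33 (SE 0.33, 0.0146), a call lost without GM 1 (0.0513) or GZM 2 (0.0616).

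**Figure D5:**
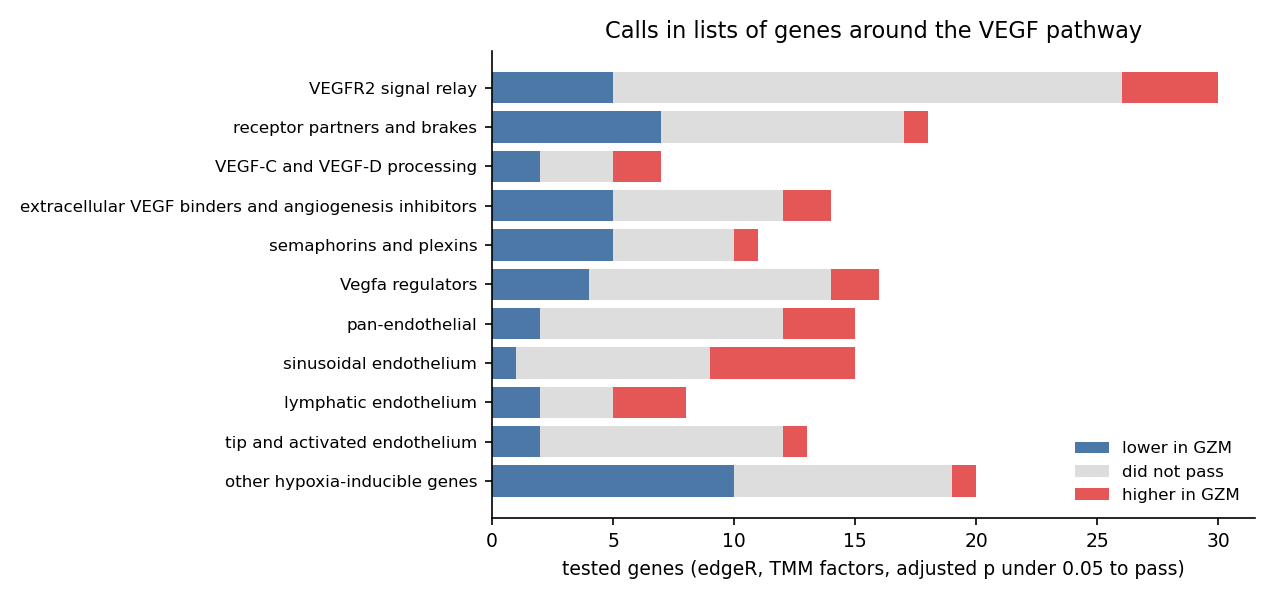
Number of tested genes per list that were lower in GZM (blue), did not pass (grey) or were higher in GZM (red) in edgeR with TMM factors at an adjusted p under 0.05. Semaphorins and plexins, receptor partners and hypoxia-inducible genes have more lower than higher calls, and sinusoidal endothelial genes have more higher than lower ones, which turns to 1 higher and 5 lower with library totals.

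The genes most alike in pattern were named by Pearson's r of log2 CPM over the 6 libraries, which also carries the difference between the groups. For Vegfa they were Mpc2 (r = 0.998), Dnlz (0.998) and Zadh2 (0.998), out of 1526 genes with r over 0.95. For Kdr they were Sumf1 (0.994), Myorg (0.994) and Fbxl20 (0.993), out of 474. For Flt4 they were Mdp1 (0.9998), Adgrf5 (0.996) and the endothelial gene Clec14a (0.996), out of 627. With 6 points, so many genes reach such values that the names are a description only.

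In the table's own coordinates Vegfa (ENSRNOG00000019598) lies on chromosome 9 from 17340341 to 17355681, Flt1 (ENSRNOG00000000940) on chromosome 12 from 9034308 to 9205905, Kdr (ENSRNOG00000046829) on chromosome 14 from 34727623 to 34787183 and Flt4 (ENSRNOG00000002511) on chromosome 10 from 35078726 to 35121599. Nrp2 (ENSRNOG00000031232) shares chromosome 9 with Vegfa, from 69497121 to 69612087. Each value is a count over all exons of a gene, so soluble and membrane forms of Flt1, Kdr and the neuropilins, and the splice forms of Vegfa, were not separated. Of the members, Vegfc and Nrp1 overlapped 1 other row of the table each, AABR07025568.1 on the opposite strand for Vegfc and a row with no symbol on the same strand for Nrp1, where reads could be shared.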

How the data were processed

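Bulk RNA sequencing gave 3 GM and 3 GZM libraries, grouped by their titles; the table's ZGM columns were matched to GZM by letters and number. The deposited table holds, per the file headers, whole-number counts and FPKM values per gene and an exon length. The deposited FPKM values were recomputed to within 0.01 from count, exon length and library total. Libraries were strand-specific per the labels' protocols; for the aligner, the counter and the strand setting, nothing is given in the sources used here. The build is mRatBN 7.2 per the submitters' processing notes, but positions reach 282724300 on chromosome 1, past its end there, so the build of the table's coordinates is unsettled.

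Counts of all genes were tested with edgeR 4.0.16 (R 4.3.3; quasi-likelihood, TMM, default low-count filter, no covariate) with Benjamini-Hochberg adjustment over 14298 genes at 0.05. TMM factors were 1.17 to 1.43 in GM and 0.715 to 0.793 in GZM. The SE is the one implied by the quasi-F value. For log2 CPM levels 0.5 was added to the CPM. Shares, ratios and levels against endothelial genes were tested with exact two-sided permutation over samples (scipy 1.17.1; smallest p 0.1). Alternatives were no filter, library totals, median-of-ratios factors, DESeq2 1.42.0, limma 3.58.1 on log2(FPKM + 0.1) and log2(FPKM + 1), a block on replicate number, omission of each library or of both GM 3 and GZM 1, and other units or marker sets for the within-library measures. The edgeR code was tested on simulated data. Genes, lists (22, with 9 of 280 entries unmatched) and tests were chosen with earlier results of these data known. Named list genes are among the 4 of smallest p in their list, or any regulator or processing gene. Ctsl, F8 and Pf4 are named besides, to show what sums and calls of their lists hold. Vegfa, Kdr and Flt4 each have their 3 most alike genes named. Members matched RefSeq promoters (build GRCr8) by symbol. Replicates differed beyond sampling noise (chi-square per degree of freedom at least 10.5).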

Additional observations from a re-analysis of the deposited data

How the results depend on the processing

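Flt1 and Nrp2 kept their direction and call under all 14 alternatives, and Vegfa under 11, losing it on library totals and in limma on either FPKM scale. The number of members higher (3 with TMM factors) was 0 on library totals and in limma on log2(FPKM + 0.1) and log2(FPKM + 1), and 1 to 3 on leaving out a library. The number lower (3) was 6 under those 3 settings. They call 9818, 9922 and 9843 of 14298 genes instead of 6285 and put the median gene at -0.92, -0.88 and -0.67. Without GZM 2, 3777 genes passed, and without GM 3, 7024.

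Some estimates changed sign. With TMM factors Vegfc (0.02) and Vegfd (0.11) were near 0, while Kdr (0.78) and Epas1 (0.79) were not. Vegfc was -0.82 on library totals, -0.79 and -0.70 in limma (+ 0.1, + 1), -0.042 without both GM 3 and GZM 1, and from -0.063 to 0.17 without 1 library. Vegfd was -0.75, -0.58 and -0.55 in the first 3 of these and from -0.17 to 0.66 without 1 library. Kdr was -0.025, -0.0035 and -0.0053 in the same 3. Measured from the median gene, Kdr was at 0.87 with TMM factors and at 0.90 with library totals. Epas1 was -0.013 on library totals. The group difference of Kdr was -0.054 against sinusoidal genes and 0.63 against pan-endothelial genes. A change of scaling shifts all genes by nearly the same amount. The median gene, at -0.09 with TMM factors, stood at -0.92 on library totals and at -0.88 and -0.67 in limma (+ 0.1, + 1). The cause of the changes on leaving out libraries or with other endothelial genes was not tested.

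Same-numbered libraries did not deviate together (r = -0.15, 0.17 and -0.30), so the numbers are not taken as pairs. With the replicate block 5166 genes passed instead of 6285, with 3 members higher and 4 lower, Pgf being added. On leaving out 1 library the Nrp1 share difference ran from -0.73 to 11.1 percentage points, the Vegfd share from -8.12 to -0.65, the Vegfb share from -9.52 to -4.97 and the log2 Vegfa to Kdr ratio from 0.11 to 0.47. The other share and ratio differences kept their sign and moved by less than 1.5 times. Pgf rests on 3 to 73 counts per library.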
